A study of Mus musculus with 8 samples.

Results

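The 4 genes described here, Myod1, Myog, Myf5 and Myf6, encode the myogenic regulatory factors, and they were followed through 4 lists of called ChIP-seq peaks from C2C12 cells. The members were the intervals that lay within 50 kb of the body of any of these genes in the GENCODE vM1 annotation of mm9, which came to 26 of the 43759 intervals in the lists together. C2C12 is a myoblast line of C3H mouse origin that withdraws from growth and fuses into myotubes when serum is lowered. All cells were kept in differentiation medium with 2% horse serum for 24 h, either without (Ctl) or with (Bex) 50 nM bexarotene, an agonist selective for the retinoid X receptor (RXR). Myogenin and the acetyltransferase p300 were each precipitated from 1 library per condition, and 4 of the 8 samples of the series have a peak list. The input chromatin and the H3K27me3 libraries were not used here. The lists hold positions and no tag counts, so the depth behind each interval and library was not known here and an interval shows that a peak was called, not how strong it was. Peak lists hold no transcript levels, so the cell identity on the labels was not checked against marker genes. No condition was replicated, so replicate error cannot be given, no test between conditions was made, and every share below is a description of these libraries.

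The myogenic regulatory factors are basic helix-loop-helix proteins that pair with E proteins and bind the E-box, CANNTG. Myf5 and MyoD (Myod1) commit cells to the muscle lineage, myogenin (Myog) acts downstream in differentiation and fusion, and Mrf4 (Myf6) is known mostly for its late role in muscle fibers. The factors are known to act on one another's genes and on their own. Myod1 is known for control elements well upstream of the gene, and Myf5 and Myf6 lie side by side and are known for far enhancers that serve both. The coordinates of those elements are in none of the files, so no interval below is assigned to one of them. p300 is a coactivator recruited by many DNA-binding factors and is widely used to mark enhancers.

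In mm9 Myod1 (ENSMUSG00000009471.3) lies on chromosome 7 from 53631844 to 53634462 and Myog (ENSMUSG00000026459.4) on chromosome 1 from 136186581 to 136189124, both on the plus strand. Myf5 (ENSMUSG00000000435.1) lies on chromosome 10 from 106919964 to 106923190 and Myf6 (ENSMUSG00000035923.3) from 106929916 to 106931785, both on the minus strand. Each gene has 1 annotated transcript with 3 exons. The window of Myod1 holds part of Kcnc1, that of Myog holds Ppfia4, and those of Myf5 and Myf6 hold each other and part of Ptprq. Intervals that overlapped across the lists fell into 10 separate sites, 6 around Myod1 and 4 around Myog. They are called here by the mean distance of their interval centers from the start of the gene in kb, with a minus sign upstream.

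The 8 sites with a myogenin interval are shown because the E-boxes in them are what the results below turn on. They are read from mm9 on the plus strand over the myogenin Ctl interval unless named otherwise, with the longer ones cut to 300 bases, at -44.6 kb of Myog to the stretch with the most E-boxes. Capitals mark CAGCTG and also CACCTG, which reads CAGGTG on the opposite strand. These are the forms counted as E-boxes here.
Myod1 -34.8 kb, chr7:53596897-53597173: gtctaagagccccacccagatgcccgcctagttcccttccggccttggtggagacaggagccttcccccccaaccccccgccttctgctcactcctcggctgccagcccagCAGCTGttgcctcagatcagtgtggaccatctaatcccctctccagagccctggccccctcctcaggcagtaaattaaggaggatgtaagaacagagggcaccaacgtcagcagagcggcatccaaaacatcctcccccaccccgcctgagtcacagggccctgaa
Myod1 -26.2 kb, chr7:53605567-53605866: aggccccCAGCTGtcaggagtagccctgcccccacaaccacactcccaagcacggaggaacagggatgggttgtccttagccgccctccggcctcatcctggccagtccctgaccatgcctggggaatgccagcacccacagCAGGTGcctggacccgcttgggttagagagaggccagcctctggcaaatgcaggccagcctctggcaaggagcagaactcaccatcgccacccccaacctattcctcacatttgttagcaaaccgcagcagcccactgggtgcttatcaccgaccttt
Myod1 -23.2 kb, chr7:53608584-53608805: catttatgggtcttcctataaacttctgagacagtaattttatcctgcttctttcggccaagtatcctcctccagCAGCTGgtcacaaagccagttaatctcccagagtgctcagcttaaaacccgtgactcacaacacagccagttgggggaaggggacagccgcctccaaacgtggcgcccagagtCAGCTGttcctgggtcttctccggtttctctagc
Myod1 -5.17 kb, chr7:53626589-53626760: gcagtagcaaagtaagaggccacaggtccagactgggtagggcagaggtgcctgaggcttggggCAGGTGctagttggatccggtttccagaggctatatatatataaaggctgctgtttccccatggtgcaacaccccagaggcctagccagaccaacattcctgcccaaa
Myog -44.6 kb, chr1:136141781-136142080: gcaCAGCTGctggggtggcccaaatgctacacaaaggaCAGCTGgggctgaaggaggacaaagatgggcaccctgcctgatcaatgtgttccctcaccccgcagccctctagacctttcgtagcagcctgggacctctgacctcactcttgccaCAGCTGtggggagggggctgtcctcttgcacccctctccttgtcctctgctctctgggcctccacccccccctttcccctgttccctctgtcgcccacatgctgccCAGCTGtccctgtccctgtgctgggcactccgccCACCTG
Myog -6.60 kb, chr1:136179929-136180155: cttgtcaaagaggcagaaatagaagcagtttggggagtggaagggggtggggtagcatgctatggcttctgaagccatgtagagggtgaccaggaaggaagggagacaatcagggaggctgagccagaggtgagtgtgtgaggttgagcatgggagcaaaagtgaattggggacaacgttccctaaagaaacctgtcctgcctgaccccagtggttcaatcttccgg
Myog -6.60 kb in the myogenin Bex interval, chr1:136179834-136180001: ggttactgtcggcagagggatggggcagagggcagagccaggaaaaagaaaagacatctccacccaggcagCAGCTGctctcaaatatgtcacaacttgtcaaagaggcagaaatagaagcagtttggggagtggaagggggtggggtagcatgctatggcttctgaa
Myog 30.9 kb, chr1:136217334-136217596: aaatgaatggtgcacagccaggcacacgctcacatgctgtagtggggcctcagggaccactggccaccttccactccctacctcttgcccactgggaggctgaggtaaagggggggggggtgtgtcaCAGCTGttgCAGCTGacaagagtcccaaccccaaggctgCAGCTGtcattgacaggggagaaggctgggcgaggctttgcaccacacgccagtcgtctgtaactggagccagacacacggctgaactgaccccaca
Myog 43.2 kb, chr1:136229657-136229879: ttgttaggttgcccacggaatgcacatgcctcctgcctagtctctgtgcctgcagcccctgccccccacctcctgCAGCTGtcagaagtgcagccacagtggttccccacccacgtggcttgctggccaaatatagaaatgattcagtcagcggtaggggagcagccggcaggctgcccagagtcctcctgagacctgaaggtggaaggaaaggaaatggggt
The site at -38.7 kb of Myod1, where p300 and not myogenin was called, is shown over its p300 Ctl interval. It holds no CANNTG, and its capitals mark the AP-1 sequence TGACTCA.
Myod1 -38.7 kb, chr7:53593092-53593341: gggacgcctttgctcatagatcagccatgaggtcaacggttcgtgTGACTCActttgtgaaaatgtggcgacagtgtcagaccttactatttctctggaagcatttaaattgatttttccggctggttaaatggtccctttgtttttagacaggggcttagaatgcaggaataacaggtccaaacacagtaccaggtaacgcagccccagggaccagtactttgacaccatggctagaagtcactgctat

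The first question was how the 4 genes differ in the number of intervals around them. Myogenin was called around Myod1 and Myog and not around Myf5 or Myf6, in either condition. Myod1 had 4 myogenin intervals in Ctl and 3 in Bex, and 5 p300 intervals in Ctl and 3 in Bex. Myog had 4 myogenin intervals in both conditions, and 1 p300 interval in Ctl and 2 in Bex. Thus Myod1 and Myog were alike in myogenin calls, and Myod1 had the larger number of p300 calls. An interval of the list lay within 50 kb of 32.3% of the 22367 protein-coding genes for myogenin Ctl, 32.9% for myogenin Bex, 53.8% for p300 Ctl and 35.2% for p300 Bex. As many myogenin Ctl intervals as Myod1 and Myog, or more, were found around 4.27% of the genes, and as many myogenin Bex intervals as Myog around 4.21%. For Myod1 the corresponding share was 7.86% in myogenin Bex, 9.64% in p300 Ctl and 7.01% in p300 Bex. For Myog it was 53.8% in p300 Ctl and 14.7% in p300 Bex. With the window drawn around the start alone, the counts of the members were the same and these shares fell, for Myod1 to 3.02%, 5.19%, 5.33% and 3.95% and for Myog to 3.02%, 2.53%, 47.1% and 9.82%, in the order of myogenin Ctl, myogenin Bex, p300 Ctl and p300 Bex. The counts of p300 intervals around Myog were thus nearer to those of genes in general than its counts of myogenin intervals.

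**Figure D1:**
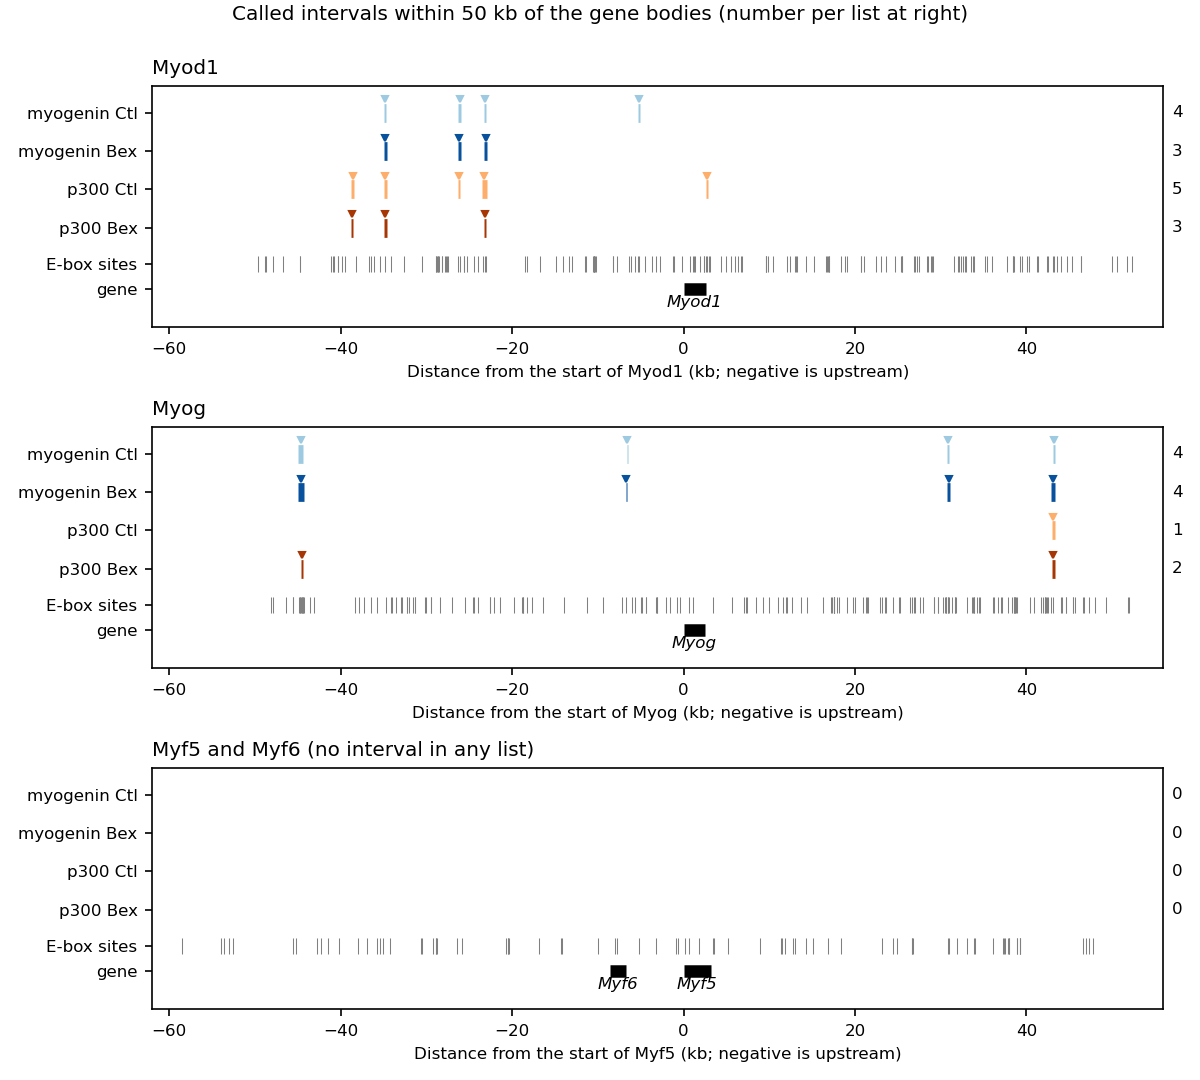
Intervals of the 4 lists (rows; vertical marks to scale in width, with a triangle at each center) and E-box sites (grey ticks) against the distance in kb from the start of Myod1, Myog and Myf5, with gene bodies as black bars and the number of intervals per list at the right. Myod1 has 4, 3, 5 and 3 intervals, Myog has 4, 4, 1 and 2, and Myf5 and Myf6 have 0 in each list, although E-box sites are spread over all windows.

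**Figure D2:**
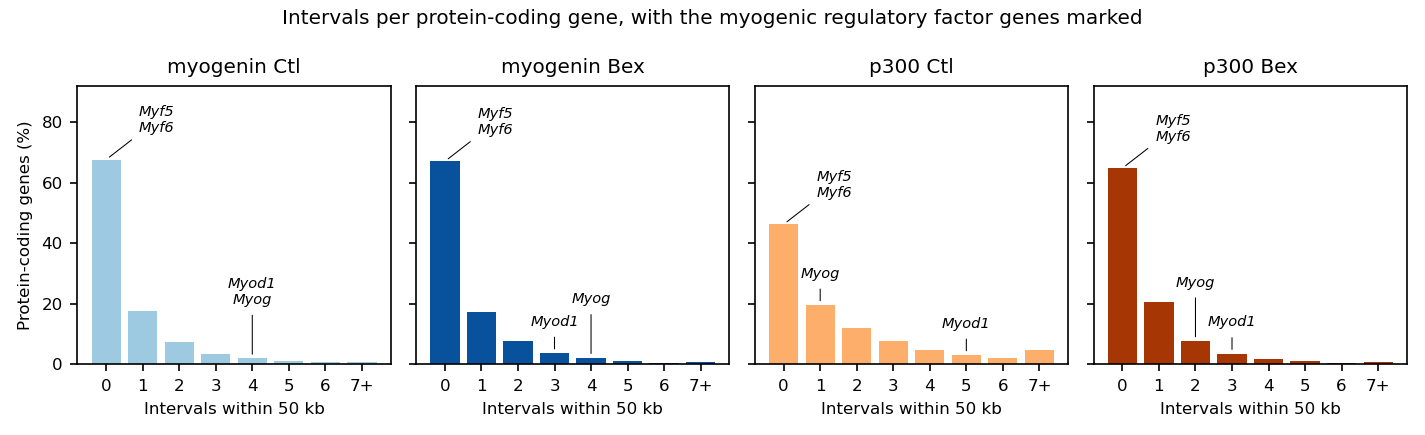
Percentage of the 22367 protein-coding genes (y axis) with each number of intervals within 50 kb (x axis, 7 or more together), 1 panel per list, with the 4 genes marked above their bar. Myf5 and Myf6 stand at 0 in each list, and Myod1 and Myog stand at 4 in the myogenin Ctl list.

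Around Myod1, which encodes the determination factor MyoD, all sites but 1 lay upstream of the gene, and none lay within 1 kb of its start. At -34.8 kb all 4 lists had an interval, of 277 bp in myogenin Ctl, 292 bp in myogenin Bex, 412 bp in p300 Ctl and 301 bp in p300 Bex. At -23.2 kb all 4 lists again had an interval, of 222, 321, 583 and 238 bp in the same order. The -26.2 kb site was called for myogenin in Ctl (321 bp) and Bex (396 bp), and for p300 in Ctl (328 bp) and not in Bex. These 3 upstream sites held every myogenin interval of the Bex list around Myod1.

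The remaining sites of Myod1 were called for a single factor. At -38.7 kb p300 had an interval in Ctl (250 bp) and Bex (202 bp), with no myogenin interval in either. At -5.17 kb myogenin had an interval from 53626589 to 53626760 in Ctl alone, 172 bp long, which is both the shortest and the median length in that list, held by 54.8% of its intervals. This was the myogenin interval nearest to the start of Myod1, and in Bex the nearest one lay at -23.1 kb. At 2.73 kb p300 had an interval from 53634449 to 53634688 in Ctl alone (240 bp), which covers the annotated 3' end of Myod1. Apart from this one, the intervals around Myod1 overlapped no protein-coding gene, and the start of Myod1 was the nearest protein-coding start to each.

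Around Myog, the gene of myogenin itself, each of the 4 sites had a myogenin interval in both conditions. The -44.6 kb site had intervals of 604 bp in Ctl and 704 bp in Bex, longer than 98.8% and 99.4% of the intervals in those lists. p300 was called there in Bex (255 bp, from 136141899 to 136142153) and not in Ctl. The -6.60 kb site, the nearest to the start of Myog, had intervals of 227 bp in Ctl and 168 bp in Bex and no p300 interval. The 30.9 kb site, inside Ppfia4, had 263 bp in Ctl and 368 bp in Bex and no p300 interval. The 43.2 kb site was called in all 4 lists, with 223 and 474 bp for myogenin and 347 and 278 bp for p300, Ctl first. So p300 was called with myogenin at 1 of the 4 sites in Ctl and at 2 of the 4 in Bex, where 33.0% of the myogenin Ctl list and 25.6% of the myogenin Bex list overlapped p300.

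Nearness to Myog does not make a site its own, because other genes start closer to some of the sites. The -44.6 kb site lay upstream of Adora1, the adenosine A1 receptor gene, with the center of the myogenin Ctl interval -9910 bp from its start. The 30.9 kb site lay inside Ppfia4, a scaffold protein gene, 12040 bp from its start in Ctl. At 43.2 kb the centers lay -263 and -187 bp from the start of Ppfia4 for myogenin Ctl and Bex, and -210 and -248 bp for p300 Ctl and Bex. That site supplied the 1 interval in each list that lay within 1 kb of a protein-coding start. The corresponding share of the whole list was 24.2% for myogenin Ctl, 12.5% for myogenin Bex, 11.0% for p300 Ctl and 12.4% for p300 Bex. For the -6.60 kb and Myod1 sites, the member itself had the nearest protein-coding start.

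No interval of any list lay within 50 kb of Myf5 or Myf6, and none within 100 kb either. Of all protein-coding genes, 36.1% had none in the 4 lists within 50 kb and 25.1% none within 100 kb. The nearest p300 interval was shared between the conditions and lay inside an intron of Ptprq, from 107052499 to 107052886 in Ctl and from 107052541 to 107052781 in Bex. Its center was 121 kb upstream of the start of Myf6 and 129.5 kb upstream of that of Myf5. The nearest myogenin interval lay 285 kb from the start of Myf6 in Ctl and 679 kb in Bex, both upstream. The median distance over the 22350 protein-coding genes on chromosomes with intervals was 152 kb for myogenin Ctl, 141 kb for myogenin Bex, 56.6 kb for p300 Ctl and 122 kb for p300 Bex. The share of these genes with their nearest interval farther away than Myf5 was 35.1% in myogenin Ctl, 16.6% in myogenin Bex, 30.2% in p300 Ctl and 48.1% in p300 Bex. For Myf6 it was 35.8%, 16.8%, 31.8% and 50.2% in the same order. For Myog it was 90.6%, 92.1%, 56.2% and 73.8%, and for Myod1 91.4%, 83.6%, 88.2% and 83.2%. In p300 Bex the distances of Myf5 and Myf6 were thus near the middle of all genes, and in myogenin Bex they were among the longer ones. The windows of the 4 genes hold 0 unassigned bases in mm9. Since the lists keep the intervals that passed the authors' threshold, a gene without one may still carry weaker signal.

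E-boxes themselves were present in all 4 windows. The window of Myod1 (103 kb) held 169 and that of Myog (103 kb) held 179, while those of Myf5 and Myf6 (103 and 102 kb, largely the same bases) held 78 and 79. Per kb this was 1.65 for Myod1, 1.75 for Myog, 0.756 for Myf5 and 0.775 for Myf6, against a median of 1.27 over all protein-coding genes (quartiles 1.01 and 1.57). The E-box density was lower than around Myf5 for 4.65% of the genes and lower than around Myog for 85.6%. Within 1 kb of the start lay 2 E-boxes at Myod1, 3 at Myog, 4 at Myf5 and 2 at Myf6, and none of these was in an interval of any list. Of the E-boxes in the window, 6 of 169 around Myod1 (3.55%) and 14 of 179 around Myog (7.82%) fell inside a myogenin interval of either condition. By list, these were 6 (3.55%) in Ctl and 5 (2.96%) in Bex around Myod1, and 11 (6.15%) and 14 (7.82%) around Myog. For CAGCTG alone, in either condition, the counts were 4 of 76 (5.26%) and 11 of 75 (14.7%). Across the genome, again by list, 0.258% of 2755293 E-boxes lay in a myogenin Ctl interval and 0.344% in a myogenin Bex interval. Around Myf5 and Myf6 no E-box lay in a myogenin interval, since neither window held one. The genome share takes in stretches without intervals, so it is not a share for windows that hold one.

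The 300-base promoter of Myog in the RefSeq table of GRCm38.p6 (250 bases before to 50 after the start) is shown because no interval was called over it. Capitals mark CANNTG and TCAGGTTTC, the MEF3 sequence known to bind homeodomain factors such as Six4.
Myog promoter, GRCm38.p6 chr1:134289754-134290053, plus strand: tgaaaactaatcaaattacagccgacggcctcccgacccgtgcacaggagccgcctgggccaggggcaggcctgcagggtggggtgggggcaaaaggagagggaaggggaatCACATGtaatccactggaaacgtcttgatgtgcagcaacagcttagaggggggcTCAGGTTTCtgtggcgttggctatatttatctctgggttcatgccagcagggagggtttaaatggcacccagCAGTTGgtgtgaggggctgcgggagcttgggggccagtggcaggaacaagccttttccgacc
It held 2 CANNTG sites on either strand, neither of them an E-box of the counted forms, and 1 MEF3 sequence, a match found in 0.429% of the 32851 promoters of that table. A counted E-box was present in 32.9% of these promoters and any CANNTG in 72.3%. The Myf5 promoter in the table held 0 CANNTG. Entries for Myod1 and Myf6 were not matched.

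The second comparison was between the conditions. Around the 4 genes 7 of the 8 myogenin Ctl intervals overlapped a Bex interval by at least 1 bp (87.5%, 95% Wilson interval 52.9 to 97.8, which covers counting error over intervals), where the share over the whole Ctl list was 50.6%. The Wilson intervals here and below treat neighboring peaks as independent, although all members lie around Myod1 and Myog. All 7 myogenin Bex intervals overlapped a Ctl interval, where the share over that list was 45.1%. Hence no myogenin peak was unique to Bex within 50 kb of these genes, and the 1 unique to Ctl was the -5.17 kb interval of Myod1. Most members were longer than the median of their list, 7 of 8 in myogenin Ctl, 6 of 7 in myogenin Bex, 6 of 6 in p300 Ctl and 5 of 5 in p300 Bex. A longer interval covers more bases, which bears on the shares for overlap and for E-boxes anywhere in an interval, here and below. Among protein-coding genes 25.1% had a Bex-only and 23.0% a Ctl-only myogenin interval within 50 kb, and 17.4% had a shared one. Within 100 kb, 2 were unique to Bex, both around Myog, and 2 to Ctl, both around Myod1, where 36.6% of the protein-coding genes had a Bex-only and 32.4% a Ctl-only one. Each of the unique intervals around Myod1 and Myog had the shortest length of its list, 172 bp in Ctl and 168 bp in Bex.

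For p300, 4 of 6 Ctl intervals and 4 of 5 Bex intervals were shared, where the shares over the lists were 32.7% and 79.7%. The intervals unique to Ctl were those of Myod1 at -26.2 and 2.73 kb, and the interval unique to Bex was that of Myog at -44.6 kb. A Ctl-only p300 interval lay within 50 kb of 47.5% of the protein-coding genes and a Bex-only one within 50 kb of 14.4%. The p300 lists differ in size, with 22051 intervals in Ctl and 9154 in Bex, which bears on any count of intervals unique to Ctl. Whether the p300 calls that differ at Myod1 and Myog come from the depth of the libraries was not tested.

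The shared myogenin pairs at -6.60 and 43.2 kb of Myog were the least alike in extent. At -6.60 kb of Myog the Ctl interval ran from 136179929 to 136180155 and the Bex interval from 136179834 to 136180001, so that they had 73 bp in common and their centers lay -124 bp apart, Bex minus Ctl. The Bex interval held a CAGCTG -10 bp from its center, and the Ctl interval held no CANNTG at all, as the sequences above show. At 43.2 kb the Bex interval contained the Ctl interval and was 2.13 times as long. With a reciprocal overlap of 50% of each interval, these pairs were counted as unique and the myogenin intervals unique to Ctl and to Bex became 3 and 2.

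Among the members, most shared myogenin intervals were longer in Bex and the shared p300 intervals were shorter. In 6 of the 7 shared pairs the myogenin interval was longer in Bex, with ratios of Bex over Ctl from 0.740 at -6.60 kb of Myog to 2.13 at 43.2 kb and a median of 1.23. Over 2983 shared pairs of the whole lists the median ratio was 0.977 (quartiles 0.873 and 1.25), and 45.6% were longer in Bex. Quartiles here give the spread of single pairs, so a median over the few members cannot be judged against them. The p300 interval was longer in Bex in 0 of 4 shared pairs, with ratios from 0.408 to 0.808 and a median of 0.766, where 9.98% of 7105 pairs were longer in Bex. Over those pairs the median ratio was 0.664 (quartiles 0.506 and 0.865), so p300 intervals were mostly shorter in Bex across the list as well. Many intervals of the lists sat at a fixed shortest length, which bears on these ratios. It was 172 bp for 54.8% of myogenin Ctl, 168 bp for 50.0% of myogenin Bex, 159 bp for 34.3% of p300 Ctl and 158 bp for 48.9% of p300 Bex, and 1 member in each myogenin list and none in the p300 lists had it. A pair with both myogenin intervals at the shortest length has a ratio of 0.977, the median of the whole list. Among the 1642 myogenin pairs with both intervals longer than that, a selection made after the data were seen, the median ratio was 0.995 (quartiles 0.856 and 1.20) and 48.4% were longer in Bex. All 6 members among them were longer in Bex, with a median ratio of 1.32. The member pair left out was that of Myog at -6.60 kb, the only one shorter in Bex. The higher share and median of the members therefore follow from the selection. For p300 the median ratio of 4012 such pairs was 0.713 (quartiles 0.561 and 0.879), 12.8% were longer in Bex, and the 4 members were all among them. The part of depth in the lengths was not tested.

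**Figure D3:**
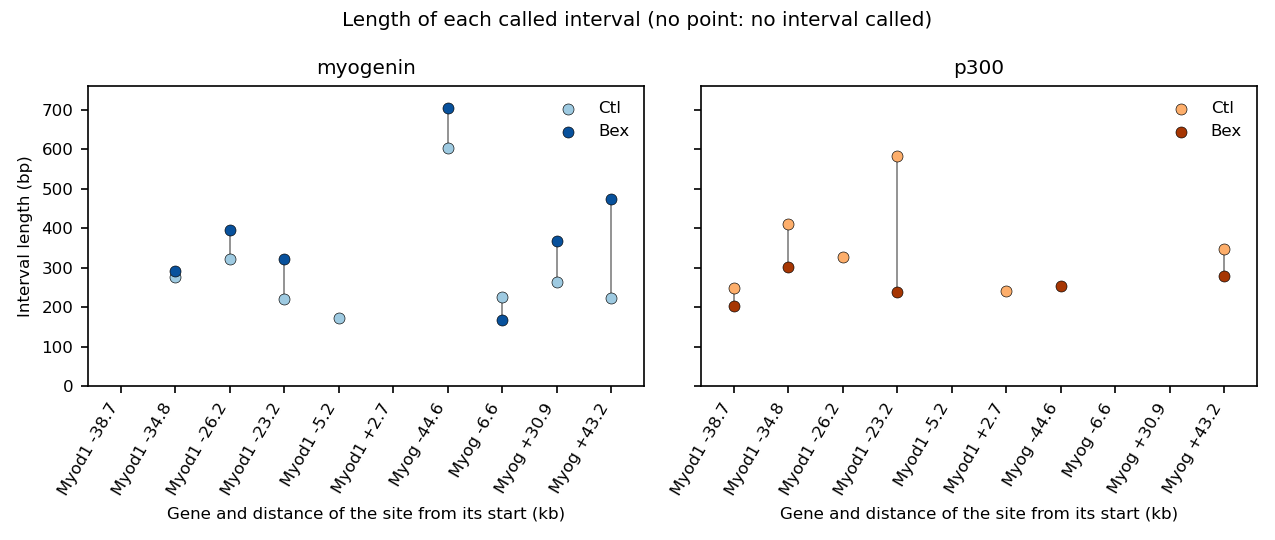
Length in bp (y axis) of each myogenin (left) and p300 (right) interval at the 10 sites (x axis, gene and distance from its start in kb), with Ctl in the light and Bex in the dark color and a grey line joining both where both were called. Myogenin intervals reach 704 bp at -44.6 kb of Myog and are longer in Bex at all shared sites but the one at -6.60 kb, and p300 intervals are shorter in Bex at all 4 shared sites.

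E-boxes lay close to the centers of the myogenin intervals. Within 50 bp of the center 7 of 8 myogenin Ctl intervals and 7 of 7 myogenin Bex intervals held one, where the shares over the lists were 47.7% and 60.3%. The interval without one was that of Myog at -6.60 kb in Ctl. CAGCTG alone was found in 5 of 8 Ctl and 6 of 7 Bex intervals, against 36.5% and 48.6%. Over their whole length the myogenin intervals held 17 E-boxes in Ctl and 19 in Bex, of which 13 and 15 were CAGCTG. A counted E-box was present somewhere in 7 of 8 Ctl and 7 of 7 Bex intervals (65.2% and 77.2% of the lists), and 2 or more in 4 of 8 and 5 of 7 (33.2% and 41.1%). The density came to 0.736 and 0.698 per 100 bp, beside 0.522 and 0.621 per 100 bp in the lists as a whole.

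The number of E-boxes differed from site to site. The -44.6 kb site of Myog had 7 in the Ctl interval and 8 in the Bex interval, counts reached by 0.406% and 0.256% of the intervals in those lists, and 5 of the 8 were CAGCTG. They were spread over the site, with gaps of 28 to 110 bp between neighboring cores. The 30.9 kb site had 3 CAGCTG, separated by 3 and 24 bp and all within 50 bp of the center in both conditions. It was the only member interval in either myogenin list with 2 or more E-boxes in that central part, where 14.1% of the Ctl list and 18.5% of the Bex list had them. The 43.2 kb site had 1 CAGCTG in the Ctl interval and 2 in the longer Bex interval, 265 bp apart.

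Around Myod1 the E-boxes were fewer. The -34.8 kb site had 1 CAGCTG, which lay in all 4 intervals. The -26.2 kb site had 1 CAGCTG, -140 bp from the center of the Ctl interval and -108 bp from that of the Bex interval, and 1 CAGGTG, which lay -5 bp from the center of the Ctl interval and 27 bp from that of the Bex interval. At -23.2 kb there were 2 CAGCTG in both myogenin intervals, 107 bp apart, and a CAGGTG further upstream that lay in the p300 Ctl interval alone. The -5.17 kb interval of the Ctl list had 1 E-box, a CAGGTG -19 bp from its center, and no CAGCTG. A pair of pyrimidines followed the core, in either orientation, at 14 of 17 E-boxes in member intervals of myogenin Ctl and at 15 of 19 in those of myogenin Bex, where the shares over the lists were 74.8% and 76.3%.

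**Figure D4:**
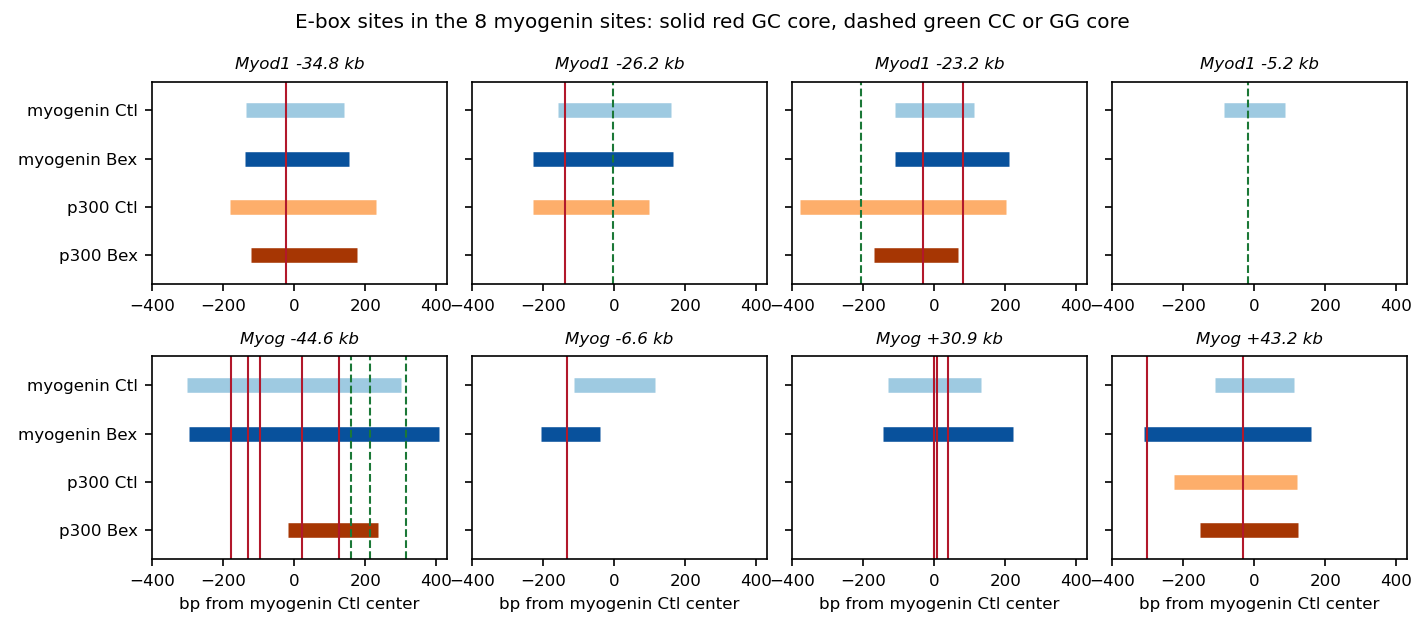
Intervals of the 4 lists (bars) and E-box sites (vertical lines, solid for CAGCTG and dashed for CACCTG or CAGGTG) at the 8 sites with a myogenin interval, against the distance in bp from the center of the myogenin Ctl interval. At -44.6 kb of Myog 8 E-boxes are spread over the site, at 30.9 kb 3 lie together near the center, and at -6.60 kb the E-box lies in the Bex interval and outside the Ctl interval.

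The third comparison was between the factors. In Ctl 4 of the 6 p300 intervals overlapped a myogenin interval of the same condition, those of Myod1 at -34.8, -26.2 and -23.2 kb and that of Myog at 43.2 kb (66.7%, 95% Wilson interval 30.0 to 90.3). Over the whole p300 Ctl list 8.79% did. In Bex 4 of 5 did, at -34.8 and -23.2 kb of Myod1 and at -44.6 and 43.2 kb of Myog, beside 18.5% of the p300 Bex list. Of the myogenin intervals 4 of 8 in Ctl and 4 of 7 in Bex overlapped p300, beside 33.0% and 25.6% of those lists. The count was therefore the same in both conditions while the sites were not, since p300 was called at -26.2 kb of Myod1 in Ctl alone and at -44.6 kb of Myog in Bex alone.

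Where both factors were called, their centers lay within 100 bp of each other, with a minus sign where the p300 center was the more upstream. At -34.8 kb of Myod1 the p300 center lay 24 bp from the myogenin center in Ctl and 19 bp in Bex. At -23.2 kb it lay -89 and -99 bp away, and at -26.2 kb -66 bp in Ctl. At 43.2 kb of Myog it lay -53 bp away in Ctl and 61 bp in Bex, and at -44.6 kb 53 bp in Bex. An E-box lay wholly within 50 bp of the p300 center in 2 of 6 Ctl and 3 of 5 Bex intervals. The shares over the lists were 19.6% and 25.2%. At -34.8 kb of Myod1 a CAGCTG lay -48 bp from the p300 center in Ctl and -50 bp in Bex. It was not counted, because part of it lay beyond 50 bp. For CAGCTG alone, counted the same way, the counts were again 2 of 6 and 3 of 5, beside 15.8% and 20.5%. Anywhere in the interval, an E-box was present in 5 of 6 and 4 of 5, beside 38.1% and 40.7%. The exception in both conditions was the -38.7 kb site of Myod1. There were 2 or more in 2 of 6 and 1 of 5 (11.5% and 13.4%).

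Other consensus sequences were searched in either orientation in the 100 bp to each side of the center. The AP-1 sequence TGACTCA or TGAGTCA occurred in 1 of 8 myogenin Ctl, 1 of 7 myogenin Bex, 1 of 6 p300 Ctl and 2 of 5 p300 Bex intervals, all at -38.7 and -23.2 kb of Myod1. It occurred in 10.4%, 12.6%, 27.8% and 27.1% of the lists. These counts depend on where the center lies. At -23.2 kb the p300 Ctl interval also covered the TGACTCA, which lay beyond 100 bp of its center and was not counted. At -34.8 kb of Myod1 a TGAGTCA near the end of the printed sequence lay in both p300 intervals. It was not counted, because it did not lie wholly within 100 bp of a center. The Tead sequence GGAATG occurred in 3 of 8, 3 of 7, 2 of 6 and 2 of 5 (16.7%, 19.1%, 18.7% and 18.9% of the lists). The Runx sequence TGTGGT occurred in 1 of 8, 2 of 7, 1 of 6 and 0 of 5 (25.6%, 29.6%, 31.1% and 32.7%). The nuclear receptor half-site AGGTCA occurred in 1 interval of each list, at -44.6 kb of Myog for myogenin and at -38.7 kb of Myod1 for p300 (12.6%, 13.5%, 10.8% and 11.3%). The MEF2 sequence occurred in none of the members (0.930%, 1.08%, 0.599% and 0.645% of the lists), and neither did MEF3 (0.338%, 0.467%, 0.653% and 0.546%). With 5 to 8 intervals per list, these counts are descriptions of single sites.

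Other regulators of the muscle program were counted the same way over a list of 23 genes, which holds upstream factors, Mef2 and Srf, E proteins and their inhibitors, RXR and acetyltransferases. A myogenin interval lay within 50 kb of 14 of the 23 in Ctl and 16 in Bex, and a p300 interval of 20 in Ctl and 17 in Bex, beside the shares of all genes given above. A shared myogenin interval was found at 11 of the 23, a Ctl-only at 9 and a Bex-only at 10, beside 17.4%, 23.0% and 25.1% of all protein-coding genes. A shared p300 interval was found at 14, a Ctl-only at 17 and a Bex-only at 11, beside 27.7%, 47.5% and 14.4%. The genes of the list are longer than genes in general, with a median of 29.7 kb against 15.4 kb, which widens their windows. The genes named here were chosen after their values were seen. Tcf3, which encodes the E proteins that pair with the myogenic factors, had 12 myogenin intervals in Ctl and 6 in Bex and 1 and 2 of p300. Id3, an inhibitor of E proteins, had 4 and 4 of myogenin and 5 and 2 of p300, close to the counts of Myod1. Six4, a homeodomain factor upstream of the myogenic genes, had 0 and 3 of myogenin, all 3 unique to Bex, and 7 and 4 of p300. Twist1 was the gene of the list that, like Myf5 and Myf6, had none in the 4 lists.

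By their counts in the 4 lists, the genes most like the members could not be narrowed to a few. Among genes whose windows touch none of the members', 11 differed from Myod1 and 9 from Myog by 1 interval in all, and none had the same counts. The counts of Myf5 and Myf6 were shared by 8064 other genes.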

How the data were processed

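Peaks of myogenin and p300 were analysed from 1 library per factor and condition. Per the methods, the authors used BWA-MEM for the myogenin reads and Bowtie for those of p300, both against mm9. After Picard had taken out duplicates, HOMER findPeaks was run per library (-style factor -region). The deposited lists give chromosome, start (counted from 0) and end, and neither depth nor the calling threshold could be varied. Positions are printed counted from 1.

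An interval was a member when any base lay within 50 kb of a gene body in GENCODE vM1. A shared interval had 1 bp or more in common with the other condition. Starts were those of 51733 protein-coding transcripts. E-boxes near the center were counted in mm9 when the whole site lay within 50 bp of it. Sites were to be named if within 10 kb of a member start, bound by both factors, unique to a condition for myogenin or among the 3 longest of a locus. The rule leaves out the -38.7 kb site of Myod1 and the genes Adora1, Kcnc1 and Ptprq, which were added after their values were seen. The members and lists were chosen with earlier results of these data known. Promoters came from RefSeq (GRCm38.p6), where 2 of the 4 genes matched.

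Python 3.11.15 with numpy 2.4.6, pandas 2.3.3, pysam 0.24.0 and matplotlib 3.10.9 was used. The functions were tested on simulated data in 6 steps, and all 6 were recovered. Alternatives changed the window, the overlap rule, the start catalog and distance, the E-box and the myogenin list.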

Additional observations from a re-analysis of the deposited data

How the results depend on the processing

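Of 70 values recomputed under other settings 52 stayed within 1.5 times of the reported count, and all 16 under a window around the start alone, added after the data were seen, did so too, although the share of genes with as many intervals or more fell by over 1.5 times for Myod1 in myogenin Bex (7.86% to 5.19%), p300 Ctl (9.64% to 5.33%) and p300 Bex (7.01% to 3.95%) and for Myog in myogenin Bex (4.21% to 2.53%). A window of 25 kb left 3 myogenin Ctl, 2 myogenin Bex, 2 p300 Ctl and 1 p300 Bex intervals, with 2 shared myogenin, 1 shared p300, 1 Ctl-only p300 and 0 Bex-only p300. A window of 100 kb gave 13 myogenin Ctl and 13 myogenin Bex intervals, with 11 shared, 2 Ctl-only and 2 Bex-only, and 2 Bex-only p300. A reciprocal overlap of 50% gave 3 Ctl-only and 2 Bex-only myogenin and 2 Bex-only p300. Searched over whole intervals, 5 p300 Ctl intervals held an E-box. These counts are small by construction, and other causes were not tested. No paired analysis was possible because each group has 1 library. The depth of each library is not given in the sources used here, and Wilson intervals cover counting error alone, with neighboring peaks treated as independent.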

Other observations

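Beyond the 50 kb window, a further group of myogenin intervals lay upstream of Myod1, the farthest over an exon of Otog. In the 100 kb window the Ctl list had intervals at -75.1, -61.7, -60.5 and -59.3 kb from the start of Myod1, and the Bex list at -75.2, -61.7 and -59.3 kb. The one at -60.5 kb was unique to Ctl and the others were shared. At -61.7 kb the interval was 172 bp long in Ctl and 376 bp in Bex, and p300 had an interval of 158 bp there in Bex and none in Ctl. Around Myog, a myogenin interval at -93.8 kb, in an intron of Mybph, was shared, with 292 bp in Ctl and 458 bp in Bex. The myogenin intervals at -96.6 kb, over an exon of Mybph, and at 84.4 kb were unique to Bex, and a p300 interval at 71.9 kb, over an exon of Tmem183a, was unique to Ctl. Every interval named in this section as called in a single condition had the shortest length of its list.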
